A study of Mus musculus with 3 samples.

Results

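The CHD proteins (chromodomain helicase DNA-binding) are ATP-driven enzymes that slide, space or evict nucleosomes, and a pair of chromodomains lets them contact the tails of histones. The 8 genes *Chd1*, *Chd2*, *Chd3*, *Chd4*, *Chd6*, *Chd7*, *Chd8* and *Chd9* were taken by symbol from the 24062 gene symbols that were counted by RNA-Seq in the embryonic mouse head. In the *tuft* library, 4 of the 8 genes were lower than in the wild-type library with a whole counting interval past 2-fold, and none was higher by that rule, against 29.8% of all genes tested lower and 17.4% higher. *Chd6*, *Chd7* and *Chd8* of subfamily III had the lowest fold changes, whereas *Chd1*, *Chd2* and *Chd3* had fold changes of 0.939, 0.890 and 1.15.

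The RNA came from the rostrum (the front of the head) of E9 embryos with 18-22 somites. The study places these stages during or after the closure of the anterior neural tube. Embryos of the *tuft* group were homozygous for the *tuft* allele of *Tet1*, a point mutation that truncates TET1, an enzyme that oxidizes methylated cytosine, and they were chosen for a neural tube defect with curled neural folds. Wild-type embryos came from the 3H1 Balb background strain, which both groups share. RNA of 3 embryos was pooled for a library, and 1 column of counts per genotype was analyzed, so that every difference below is between 2 columns, each taken here as 1 library, without a replicate error or a p-value. The labels list 2 *tuft* samples, and the single *tuft* column of counts was not assigned to either of them.

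In vertebrates the family has 3 branches. CHD1 and CHD2 (subfamily I) bind DNA through a SANT and SLIDE domain and act at transcribed genes, where CHD1 reads methylated lysine on histone H3. CHD3 and CHD4 belong to subfamily II with CHD5, whose gene is not among the 8. CHD3 and CHD4 carry PHD fingers and are motor subunits of NuRD, a complex that couples nucleosome remodeling to histone deacetylation. CHD6, CHD7, CHD8 and CHD9 (subfamily III) are very large proteins, several of them with BRK domains. CHD7 acts at enhancers of the neural crest, the neural tube and the inner ear and is mutated in CHARGE syndrome, and CHD8 binds beta-catenin and CTCF and is mutated in forms of autism.

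Gene counts totaled 14251942 for wild type and 6433067 for *tuft*, so that wild type was 2.22 times as deep and gives the narrower counting errors. Fewer genes had a count in *tuft* (11795) than in wild type (16914). The part of this difference in the CHD values was not tested. Levels are given as counts per 1000000 gene counts (CPM) with exact Poisson intervals. Fold changes are *tuft* over wild type after TMM scaling, which sets a trimmed and weighted mean of the genes' log ratios to 0, and their exact 95% intervals cover counting error only. TMM multiplied the *tuft* total by 0.761 relative to wild type, and with library totals in its place every log2 fold change would be lower by 0.39. The mutated gene *Tet1* had 435 counts in wild type against 32 in *tuft*, which is 0.214 of the wild-type level (0.145 to 0.307).

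Genes of the head were detected in both libraries. The 8 markers of neuroepithelium summed to 1162 CPM in *tuft* and 1055 CPM in wild type, and 2 of them were past 2-fold higher and none lower. Of the 6 markers of head mesenchyme (1068 CPM summed in *tuft* and 463 in wild type), 2 were higher and 2 lower, with *Prrx2* at 0 counts in *tuft*. Of the 4 markers of neural crest (289 and 157 CPM), 1 was higher, *Sox10*, with 1277 counts in *tuft* against 334 (fold change 11.1). *Foxd3* was at 0 counts in *tuft* against 14 in wild type, too few for a call. Of the 5 markers of surface ectoderm (768 and 592 CPM), 1 was higher and 1 lower. In summed CPM, markers of other tissues differed more, although single markers of the head differed widely too. Of 5 erythroid markers (35525 CPM in *tuft* and 3192 in wild type), 3 were higher and 1 lower. Of 5 endothelial markers (67.5 and 277 CPM), 3 were lower and none higher, with *Pecam1* at 0 in *tuft*, and of 8 markers of yolk sac endoderm (277 and 2054 CPM), 6 were lower and none higher, with *Apoa4* at 0 in *tuft*. The part of these tissues in the CHD values was not tested. In pooled tissue, fewer cells of a type and less RNA per cell cannot be told apart.

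Promoter sequence is shown for the 3 genes lower in *tuft* that have a window in the RefSeq promoter table of GRCm38.p6, because TET1 acts on methylated cytosine in CpG dinucleotides. Each line gives the first 240 bases of a 300-base window, 5′ to 3′ on the strand of the gene, with every CpG (CG, which reads the same on both strands) in capitals. The *Chd6* stretch is chr2:161109097-161109336 on the minus strand, the *Chd4* stretch is chr6:125095731-125095970 on the plus strand, and the *Chd8* stretch is chr14:52257771-52258010 on the minus strand, before a start that lies inside the outermost span of the gene.
Chd6: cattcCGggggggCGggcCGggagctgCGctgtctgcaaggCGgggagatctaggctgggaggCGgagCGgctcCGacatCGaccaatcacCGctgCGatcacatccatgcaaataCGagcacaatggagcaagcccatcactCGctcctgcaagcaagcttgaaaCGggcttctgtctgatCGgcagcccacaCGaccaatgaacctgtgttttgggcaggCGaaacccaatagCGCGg
Chd4: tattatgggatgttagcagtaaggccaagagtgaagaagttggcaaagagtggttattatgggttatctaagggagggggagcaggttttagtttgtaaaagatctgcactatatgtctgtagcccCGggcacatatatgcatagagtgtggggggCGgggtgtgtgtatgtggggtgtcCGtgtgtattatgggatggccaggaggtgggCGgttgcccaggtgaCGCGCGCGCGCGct
Chd8: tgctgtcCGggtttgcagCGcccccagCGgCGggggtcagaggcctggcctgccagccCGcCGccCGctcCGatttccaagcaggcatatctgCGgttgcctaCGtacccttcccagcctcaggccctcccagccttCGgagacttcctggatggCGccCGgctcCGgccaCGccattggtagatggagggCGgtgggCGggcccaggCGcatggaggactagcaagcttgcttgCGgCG

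The full 300-base window of *Chd6* held 20 CpG, a number that 26.5% of all 32851 promoter windows reached or passed. The *Chd8* window held 26, reached by 16.9% of windows. *Chd4* had windows at 2 starts, with 17 CpG (31.4% of windows) in the one printed and 29 (12.9%) in the other. The windows of *Chd9*, a gene not called, held 19 CpG (28.1%) at one start and 1 CpG (94.6%) at another. All but the last were above the median window, which held 7. No methylation was measured in these libraries, and the counts give no information on it.

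*Chd6*, the gene with the lowest fold change of the family, encodes a remodeler of subfamily III. It lies at chr2:160946978-161109086. It had 1138 counts in wild type against 11 in *tuft*, or 79.8 CPM (75.3 to 84.6) against 1.71 CPM (0.854 to 3.06). An equal level would have given 391 counts at the depth of the *tuft* library. The fold change was 0.0281 (0.0140 to 0.0506), or 35.5 times lower, and on the log2 scale it was -5.15. Of the 5275 genes at 20 to 100 CPM in wild type, 5.35% had a lower fold change than *Chd6*.

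*Chd7*, at chr4:8690402-8868449, had 3209 counts in wild type against 156 in *tuft*. Its level was 225 CPM (217 to 233) in wild type and 24.2 CPM (20.6 to 28.4) in *tuft*, and an equal level would have given 1102 counts in *tuft*. The gene was thus 7.06 times lower, with a fold change of 0.142 (0.120 to 0.166) and a log2 fold change of -2.82, and 4.20% of the 1882 genes at 100 to 300 CPM in wild type had a lower fold change. *Chd8*, at chr14:52198151-52258042, encodes the relative of CHD7 that binds beta-catenin. It had 2551 counts in wild type against 185 in *tuft*, or 179 CPM (172 to 186) against 28.8 CPM (24.8 to 33.2). *Chd8* was 4.74 times lower (fold change 0.211, 0.181 to 0.245, log2 -2.24), and 8.71% of the genes in the same class of wild-type level had a lower fold change.

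*Chd9*, at chr8:90828302-91054516, was the member with the fewest counts in wild type. It had 336 counts in wild type against 57 in *tuft*, or 23.6 CPM (21.1 to 26.2) against 8.86 CPM (6.71 to 11.5). Its fold change of 0.494 lies just past 2-fold, but its counting interval of 0.366 to 0.656 spans 2-fold, and it was not called. All 4 members of subfamily III had an interval that lies entirely below 1, and their log2 fold changes ran from -5.15 to -1.02 with a median of -2.53.

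**Figure D1:**
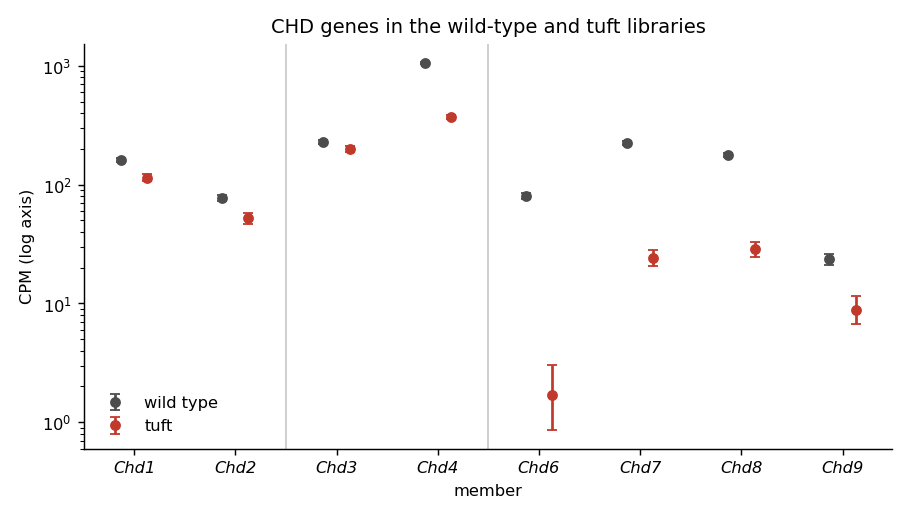
Level of each CHD gene in the wild-type library (grey) and the tuft library (red), in CPM on a log axis, with exact 95% Poisson intervals for counting error; vertical lines separate subfamilies I, II and III. The gap is widest for Chd6 (79.8 against 1.71 CPM) and narrowest for Chd3 (229 against 200.2 CPM).

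*Chd4* encodes the main motor of NuRD and was the member with the most counts in both libraries. It lies at chr6:125095980-125130591. It had 15020 counts in wild type against 2385 in *tuft*, or 1054 CPM (1037 to 1071) against 371 CPM (356 to 386). Its fold change was 0.462 (0.443 to 0.483), or 2.16 times lower, so that it passed the 2-fold rule by a small margin, and 24.1% of the 535 genes at 300 CPM or more in wild type had a lower fold change. *Chd3*, at chr11:69343273-69369499, encodes the alternative motor of NuRD and had 3263 counts in wild type against 1288 in *tuft*. It was at 200.2 CPM (189 to 211) in *tuft* and 229 CPM (221 to 237) in wild type, and its fold change was 1.15 (1.08 to 1.23). *Chd3* was the only member with an interval above 1, and with library totals in place of TMM its log2 fold change of 0.20 turned to -0.19.

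*Chd1*, at chr17:15704967-15772612, had 2285 counts in wild type against 737 in *tuft*, or 160.3 CPM (154 to 167) against 115 CPM (106 to 123). The fold change of *Chd1* was 0.939 (0.863 to 1.02). *Chd2*, at chr7:73426652-73541746, had 1103 counts in wild type against 337 in *tuft*, or 77.4 CPM (72.9 to 82.1) against 52.4 CPM (46.9 to 58.3). The fold change of *Chd2* was 0.890 (0.785 to 1.01). Both genes of subfamily I therefore had an interval that holds 1.

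All 8 members passed the minimum of 10 counts in the 2 libraries together, as did 13979 genes. With a gene called where its whole interval was past 2-fold, 4 members were lower (*Chd4*, *Chd6*, *Chd7*, *Chd8*), none was higher and 4 were neither. Among all genes tested, 29.8% were lower and 17.4% were higher by the same rule. The median log2 fold change was -1.07 for the 8 members and -0.55 for all genes tested, or -0.45 with counts under 3 set to 3. NOISeq-sim, the method of the study, was rewritten here. The method ranks the fold change and the difference of a gene against those between libraries that it draws from the same counts. A gene is called at a P_NOI above 0.95. With its main setting, the rewritten version called more genes than the study reports, and its P_NOI values should not be read as those of the study. It called 3 members lower, *Chd6* (P_NOI 1.000), *Chd7* (0.996) and *Chd8* (0.987), and none higher, against 19.1% of 17140 genes lower and 12.2% higher. *Chd4* had a P_NOI of 0.928 and *Chd9* of 0.902, and the other 3 members were between 0.395 and 0.582. On the CPM scale of the method, 17.6% of genes were called. On that scale 9.15% of genes (1569) were called lower, and again 3 members. That number of lower genes is close to the number the study reports. Whether the study used this scale was not tested.

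**Figure D2:**
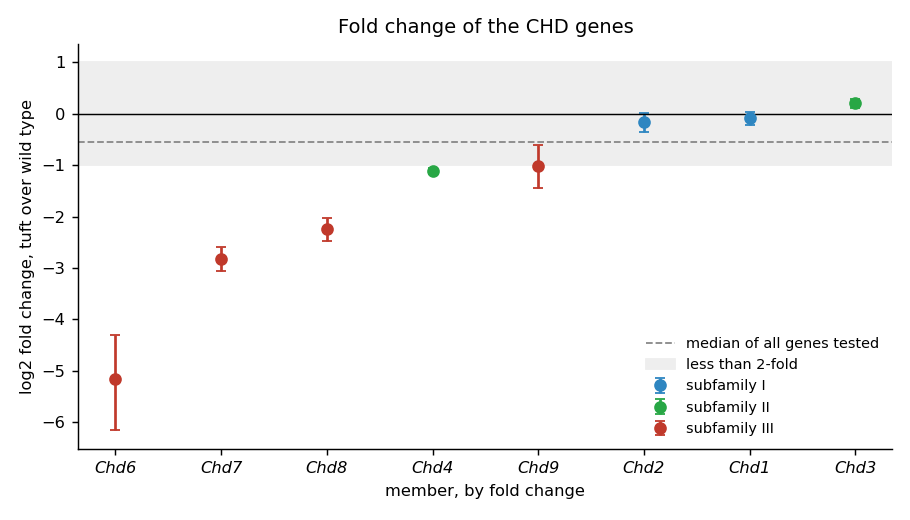
Log2 fold change (tuft over wild type, TMM scaling) of each member, ordered from the lowest to the highest and colored by subfamily, with 95% counting intervals; the grey band is less than 2-fold and the dashed line is the median of all genes tested (-0.55). Chd6, Chd7, Chd8 and Chd4 lie entirely below the band, and the interval of Chd9 crosses its edge.

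CHD transcripts are long, with a longest protein-coding transcript of 6697 (*Chd4*) to 11565 (*Chd9*) bases in GENCODE M1. Of all genes tested with a longest transcript of 6000 to 8000 bases, the class of *Chd1*, *Chd3* and *Chd4*, 30.7% were past 2-fold lower and 13.7% higher, with a median log2 fold change of -0.52. In the class of 8000 bases or more, which holds *Chd2* and all of subfamily III, 34.9% of 610 genes were lower and 11.5% higher, with a median of -0.77. *Chd2* (9032 bases), *Chd7* (10216 bases) and *Chd6* (10515 bases) are in the same length class, and their log2 fold changes were -0.17, -2.82 and -5.15. The part of transcript length in the CHD values was not tested.

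Levels were compared between members per kilobase of the longest transcript. In wild type, *Chd4* was the highest at 157 CPM per kb, followed by *Chd3* at 31.5, *Chd7* at 22.0, *Chd8* at 21.9, *Chd1* at 20.3, *Chd2* at 8.57, *Chd6* at 7.59 and *Chd9* at 2.04 CPM per kb. *Chd7*, *Chd8* and *Chd1* were thus within a narrow range in wild type. In *tuft*, *Chd4* (55.4 CPM per kb) and *Chd3* (27.6) were again the highest, and *Chd1* (14.5) and *Chd2* (5.80) came next. *Chd8* (3.51 CPM per kb), *Chd7* (2.37), *Chd9* (0.766) and *Chd6* (0.163) were the lowest 4. In the order of levels per length, *Chd7* was at place 3 in wild type and 6 in *tuft*, and *Chd6* at place 7 and 8.

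The make-up of the CHD counts within each library does not depend on the scaling between libraries. The 8 genes summed to 5156 counts in *tuft* and 28905 in wild type, or 801 and 2028 CPM, and the fold change of the sum was 0.519 (0.504 to 0.535). Subfamily III made up 25.0% (24.5 to 25.5) of the CHD counts in wild type and 7.93% (7.21 to 8.70) in *tuft*. Subfamily I made up 11.7% (11.4 to 12.1) in wild type and 20.8% (19.7 to 22.0) in *tuft*, and subfamily II 63.3% (62.7 to 63.8) and 71.2% (70.0 to 72.5). The smaller share of subfamily III was thus set against a larger share of both other branches. Among single genes, *Chd7* held 11.1% (10.7 to 11.5) in wild type and 3.03% (2.58 to 3.53) in *tuft*, and *Chd3* held 11.3% (10.9 to 11.7) and 25.0% (23.8 to 26.2). *Chd9* held 1.16% (1.04 to 1.29) and 1.11% (0.838 to 1.43), a difference within counting error.

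**Figure D3:**
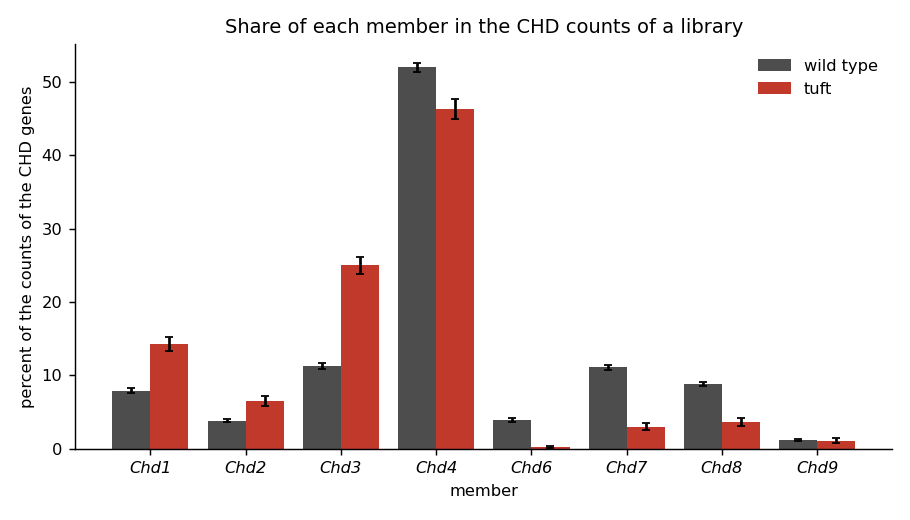
Share of each member in the summed counts of the 8 CHD genes, in percent, in wild type (grey bars) and tuft (red bars), with exact 95% intervals for counting error. Chd4 held the largest share in both libraries (52.0% and 46.3%), and Chd3 changed most upward (11.3% to 25.0%).

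Ratios between members are also free of the scaling. The pairs are not independent, since the change in a ratio follows from the fold changes of both members. Of the 28 pairs, 26 had a ratio that differed between the libraries beyond counting error. The exceptions were *Chd1* to *Chd2*, with a ratio of 2.19 in *tuft* and 2.07 in wild type, and *Chd4* to *Chd9*, for which the *tuft* ratio was 0.936 of that in wild type (0.703 to 1.27). Of the 16 pairs that set a gene of subfamily I or II against one of subfamily III, 15 were shifted toward subfamily I or II in *tuft*, *Chd4* to *Chd9* being the exception. Pairs within a subfamily differed too, in 7 of 8 cases.

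The NuRD motor genes *Chd3* and *Chd4* shifted against each other. *Chd3* to *Chd4* was 0.217 in wild type and 0.540 in *tuft*, a 2.49-fold difference (2.30 to 2.69). *Chd3* and *Chd7*, which had nearly equal counts in wild type (ratio 1.02), stood at 8.26 to 1 in *tuft*, an 8.12-fold difference (6.82 to 9.72). Within subfamily III, *Chd7* to *Chd8* went from 1.26 in wild type to 0.843 in *tuft*, a factor of 0.670 (0.535 to 0.840), and *Chd6* to *Chd7* from 0.355 to 0.0705, a factor of 0.199 (0.0969 to 0.368).

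**Figure D4:**
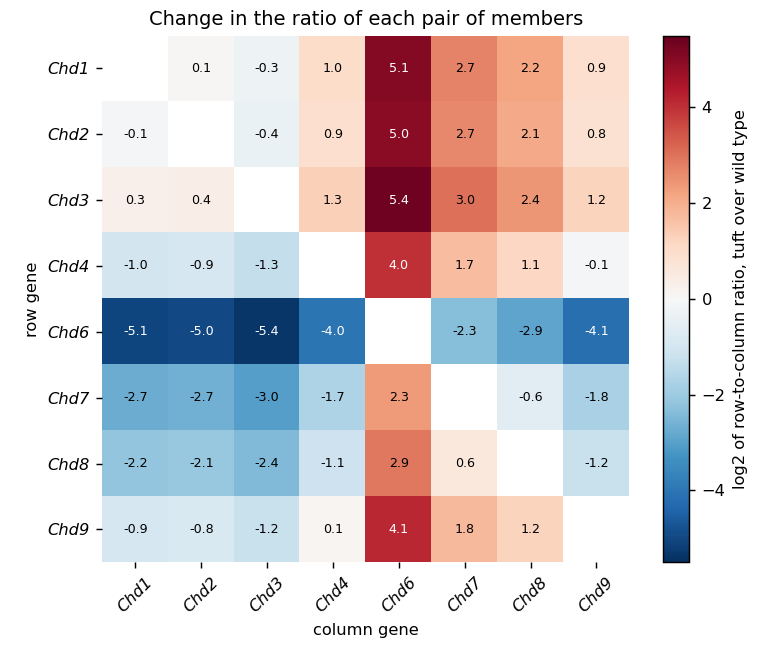
Log2 of the ratio of each row gene to each column gene in tuft over the same ratio in wild type, for the 28 pairs of members (each pair appears with both signs). The columns of Chd6, Chd7 and Chd8 are red against every member of subfamilies I and II, and the squares of Chd1 to Chd2 and Chd4 to Chd9 are near 0 (0.1 and -0.1).

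Relatives outside the 8 did not share one direction. *Chd5*, the neural paralog of *Chd3* and *Chd4*, had 41 counts in wild type against 191 in *tuft*, which made it 13.6-fold higher (9.64 to 19.5, P_NOI 1.000). *Chd1l*, a remodeler without chromodomains that acts in DNA repair, had 848 counts in wild type against 77 in *tuft* and a fold change of 0.264 (0.207 to 0.334). Per length, *Chd5* was at 3.13 CPM per kb in *tuft* and 0.303 in wild type, so that in *tuft* its level was near that of *Chd8*.

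The longest transcripts of the members shared little sequence with other genes. No 50-base window of the longest transcripts of *Chd1*, *Chd2*, *Chd4*, *Chd6*, *Chd7*, *Chd8* or *Chd9* was found in a transcript of another protein-coding gene. For *Chd3*, 3.94% of windows were shared with the gene model *Gm17305*, with both strands searched. Noncoding genes lie next to or across members, and 2 of them had counts (chosen after their values were seen). *Chd3os*, the neighbor of *Chd3*, had 180 counts in wild type against 288 in *tuft* and was past 2-fold higher (4.66, 3.85 to 5.64). *1810026B05Rik* (*Chaserr* in RefSeq), which overlaps the span of *Chd2*, had 136 counts in wild type against 109 in *tuft* and a fold change of 2.33 (1.80 to 3.02). Whether the counting used strand is not given in the sources used here, and reads from overlapping genes on opposite strands then cannot be told apart.

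Partners of the CHD proteins were described from lists chosen for this purpose. Of the 20 other ATPases of the SNF2 family that were found (of 21 listed), 4 were past 2-fold lower, 3 higher and 13 neither, with a median log2 fold change of -0.23. The lower ones were *Smarcal1* (0.327), *Rad54l* (0.289), *Ttf2* (0.292) and *Chd1l*, and the higher ones were *Smarca1* (SNF2L of the ISWI group, fold change 5.42), *Smarca2* (BRM of the BAF complex, 5.15) and *Chd5*. *Smarca4*, the BRG1 motor of BAF, had 9640 counts in wild type against 5007 in *tuft* and a fold change of 1.51 (1.46 to 1.57).

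Of the 12 NuRD subunits other than the motors, 3 were lower, 2 higher and 7 neither, with a median of -0.24. These shares were 25.0% lower and 16.7% higher, near those of all genes tested (29.8% and 17.4%). The lower ones were *Mbd2* (21 counts in *tuft* against 413, fold change 0.148) and *Mbd3* (506 in *tuft* against 5346, 0.276), which encode the alternative methyl-CpG-binding domain subunits, and *Gatad2b*, a scaffold gene with 497 counts in wild type and none in *tuft*. *Gatad2b* was 56.9-fold lower with the *tuft* count set to 3, and its counting interval reached up to a fold change of 0.0217. The higher ones were *Rbbp4*, a histone chaperone (25683 counts in *tuft* against 9197, 8.13), and *Cdk2ap1* (762 in *tuft* against 987, 2.25). The deacetylase gene *Hdac2* (0.793) and the scaffold genes *Mta1* (0.723), *Mta2* (1.39) and *Gatad2a* (0.907) were all within 2-fold.

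Of 10 other partners, 3 were lower, 1 higher and 6 neither (median -0.40). *Wdr5* (174 counts in *tuft* against 3787, fold change 0.134) and *Ash2l* (199 in *tuft* against 4251, 0.136), subunits of histone H3 methyltransferase complexes that bind CHD8, were lower, and so was *Ssrp1* (0.437) of the FACT histone chaperone. *Ctcf*, the insulator protein to which CHD8 binds, was higher (3.40), and *Ctnnb1*, which encodes beta-catenin, had a fold change of 0.980 (0.955 to 1.01). *Sox2*, which encodes a partner of CHD7, was at 0.958 (0.877 to 1.05).

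Of 8 genes reported to respond to loss of CHD7 in other systems, 6 were past 2-fold higher in *tuft*, none was lower and 2 were neither, with a median log2 fold change of 1.86, against 17.4% of all genes tested higher and 29.8% lower. The list does not record the direction of the response in those systems. It was chosen with earlier results of these data known, so its counts are a description and not a test. The transcription factor genes *Sox9* (4.87), *Sox4* (4.74), *Sox11* (4.53) and *Twist1* (3.14), the signal *Fgf8* (3.33) and the guidance cue *Sema3e* (3.93) were higher. *Otx2* (1.37) was within 2-fold, and *Gbx2* was at 0 counts in *tuft* against 17 in wild type, too few for a call. *Twist1* is also a marker of head mesenchyme and *Otx2* of neuroepithelium, and the part of *Chd7* in these values was not tested.

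**Figure D5:**
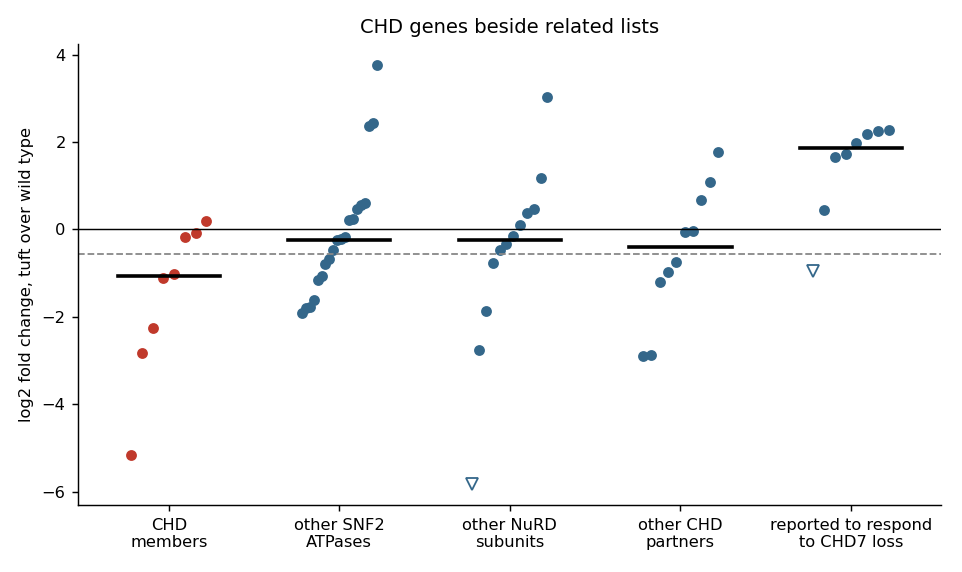
Log2 fold change (tuft over wild type, TMM scaling) of each gene in the CHD family and in 4 related lists. Black bars are medians, and the dashed line is the median of all genes tested. Open triangles are genes at 0 counts in tuft, drawn with the tuft count set to 3. The median was -1.07 for the CHD genes, -0.23, -0.24 and -0.40 for the ATPases, NuRD subunits and other partners, and 1.86 for the genes reported to respond to loss of CHD7.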

How the data were processed

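The authors deposited raw read counts per gene symbol, 1 column per genotype, and no column was left out. Per the study's methods and the submitters' processing notes, reads from an Ion Proton instrument were trimmed with PRINSEQ, aligned to mm10 with TopHat2 2.0.14 and Bowtie2 2.2.5, and counted with htseq-count of HTSeq, whose version, strand setting and gene models are not given in the sources used here. The labels and the methods differ in the amount of RNA pooled. Summary lines of the counter were kept out of totals. Counts on genes were 27.4% of entries in *tuft* and 37.3% in wild type, and entries that were not unique were 59.2% and 51.4%.

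TMM factors came from edgeR 4.0.16 in R 4.3.3. Exact Clopper-Pearson intervals and NOISeq-sim, rewritten (counts of 0 set to 0.5, 5 libraries per condition drawn at 0.2 of the counts with variation 0.02), were computed in Python 3.11.15 (scipy 1.17.1, numpy 2.4.6, numba 0.67.0, pandas 2.3.3). With 1 column of counts per genotype, no model with a p-value can be fitted. Both rules were run before use on data simulated with counting error only. Such data hold no spread between embryos or libraries, so they cannot show how far calls between 2 libraries carry over to the genotypes. In CPM, 3 counts are 0.466 in *tuft* and 0.210 in wild type. PCR reads without molecular identifiers are not independent molecules.

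Transcript lengths are from GENCODE M1 on NCBIM37, for 94.8% of genes tested, and gene spans from RefSeq genes of GRCm38.p6. Promoter windows of *Chd1*, *Chd2*, *Chd3* and *Chd7* are not in the table used. Named genes are the 8 members, *Chd5*, *Chd1l*, *Tet1* and genes of the lists and markers. One listed ATPase, *Srcap*, was not matched to a symbol, and *Supt16h* was matched as *Supt16*. The members and lists were chosen with earlier results of these data known. The alternatives were library totals, the upper quartile, DESeq2 size factors, TMM without the top 10 genes, other fold rules and filters, other NOISeq-sim settings, shares per kb and the median transcript length.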

Additional observations from a re-analysis of the deposited data

How the results depend on the processing

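*Chd6*, *Chd7* and *Chd8* were called lower under each of the 4 other scalings and each of the 3 other fold rules. The count of lower members ran from 3 (whole interval past 4-fold) to 5 (library totals, the point estimate or 1.5-fold, which add *Chd9*), and none was higher in any. With library totals in place of TMM, the median log2 fold change of the members was -1.46, NOISeq-sim called 5 members, and the log2 fold change of *Chd3* was -0.19, since that scaling lowers every gene alike. With that scaling NOISeq-sim called 32.8% of all genes with a count. A P_NOI threshold of 0.9 also gave 5 calls, with 42.0% of all genes called, and one of 0.99 gave 2 (*Chd6* and *Chd7*), with 13.5%. The upper quartile and DESeq2 size factors kept all members within their intervals. Filters left the members as they were and moved the share of all genes called lower from 24.3% (no filter) to 31.1% (1 CPM in either library). Per kb, *Chd7* held 2.16% of CHD counts in *tuft* and 8.13% in wild type, subfamily I 18.4% and 10.6%, subfamily II 75.4% and 69.6%, and subfamily III 6.19% and 19.7%. The order of levels per length rests on the longest transcript. With the median annotated length, *Chd2* moved to place 1 in *tuft* and 2 in wild type. No paired analysis was possible because each genotype has 1 column of counts. The spread between embryos is unknown, and depth limits *Chd6* and *Chd9* in *tuft*, at 11 and 57 counts.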
